A study of Mus musculus with 12 samples.

Results

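The cell cycle genes described here are 39 genes, taken by name from the 54447 rows of the read count table. They comprise 16 genes of S phase, 21 genes of G2 and mitosis (G2/M) and 2 cyclins of G1. RNA-seq was performed on mouse fibroblasts carrying a lentiviral, doxycycline (dox)-inducible N-VEGF, the amino-terminal product of the VEGF-A gene, or NLS-N-VEGF, the same product fused to a nuclear localization sequence. Each population was grown without or with dox, which gave 4 groups of 3 libraries and 12 libraries in all. The labels call the cells mouse embryonic fibroblasts and the methods of the study name the line NIH3T3. Both populations were puromycin-selected pools, all groups carried the construct, and no group without a construct was used here. In every group the libraries were labelled 1_120519, 2_120519 and 2_290419. The suffixes read like dates, but the labels do not state what they mark. Nothing in the labels states that libraries of a group came from separate cultures, so p-values measure the spread between these libraries, which may be technical.

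Total counts ranged from 13549331 to 18982127 per library. Fibroblast markers such as Col1a2 and Vim summed to between 10950 and 13760 CPM (counts scaled to the size of the library), whereas epithelial, endothelial and immune markers summed to at most 1.88, 4.49 and 6.12 CPM. The row of the construct insert, the same row for both populations, checked the dox labels only. Its counts in NLS-N-VEGF cells were 5, 7 and 12 without dox, against 48, 35 and 173 with dox. In N-VEGF cells they were 5, 10 and 7 without dox, against 121, 149 and 268 with dox. The groups did not overlap in either population. Library 1_120519 of N-VEGF cells without dox stood apart: it differed from the other _120519 library of its group by a chi-square of 25.1 per degree of freedom, against 1.73 to 4.83 in the other 3 groups.

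A dividing cell first commits in G1, when D-type cyclins activate kinases that release E2F transcription factors. E2F then turns on the genes for DNA replication, among them the Mcm helicase, the sliding clamp Pcna and the enzymes that supply nucleotides. Genes for mitosis are switched on later, largely through a CHR element together with CCAAT boxes, and the messages of both waves are low in cells that have left the cycle. In bulk RNA, fewer cycling cells and less RNA per cycling cell cannot be told apart.

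The promoters of the 2 waves carried different letters. RefSeq promoters, which span 250 bases before to 50 bases after the start, were found for 31 of the 39 genes (build GRCm38.p6). On both strands, the E2F motifs TTTGGCGC, TTTCCCGC, TTTGCCGC and TTTCGCGC, the CHR motif TTTGAA and CCAAT were searched. An E2F motif stood in 6 of 13 S-phase promoters (46.2%) and in 1 of 18 G2/M promoters (5.6%), that of Cdk1, against 2.3% of 27025 promoters. A CHR motif stood in 1 of 13 S-phase promoters (7.7%) and in 13 of 18 G2/M promoters (72.2%), against 18.1% of all. CCAAT stood in 8 and 16 of them (61.5% and 88.9%), against 37.9% of all. These are matches of letters and not measured sites. Windows upstream of the start are shown for 3 replication genes with an E2F motif and 3 mitotic genes with a CHR motif, read 5′ to 3′ on the strand of the gene, with the match in capitals, to show the letters whose share differed between the lists.
Mcm6: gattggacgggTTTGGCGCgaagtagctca
Mcm5: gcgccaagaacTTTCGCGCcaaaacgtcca
Cdc6: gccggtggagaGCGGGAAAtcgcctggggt
Kif11: tcgtctccatttTTCAAAattgaggcgcgg
Cdc20: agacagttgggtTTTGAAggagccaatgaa
Ube2c: ggagggttgcaaTTCAAAcgcgggcggcgg
These windows lie at chr1:128359734-128359763 (minus strand), chr8:75109345-75109374 (plus), chr11:98908002-98908031 (plus), chr19:37376351-37376380 (plus), chr4:118437344-118437373 (minus) and chr2:164769888-164769917 (plus). In Cdc6, Kif11 and Ube2c the motif matched on the strand opposite to the gene.

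All 39 genes were expressed in every library. The smallest count of any of them in a library was 187, for Ccne2, and together they took 0.666% to 0.738% of the counts. Per length (FPKM, which is CPM divided by the merged exon length in kilobases), Cdc20, the activator of the anaphase-promoting complex, was the highest of the G2/M genes at 133.8 ± 11.5 FPKM (SD, n = 12 libraries). The helicase subunit Mcm3 was the highest S-phase gene at 110 ± 10.1 FPKM, and its range overlapped that of Cdc20. The lowest S-phase gene was Ccne2, a cyclin that activates Cdk2 at the start of replication, at 5.33 ± 0.983 FPKM. The lowest G2/M gene was Cenpf, a kinetochore protein, at 10.9 ± 1.36 FPKM.

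**Figure D1:**
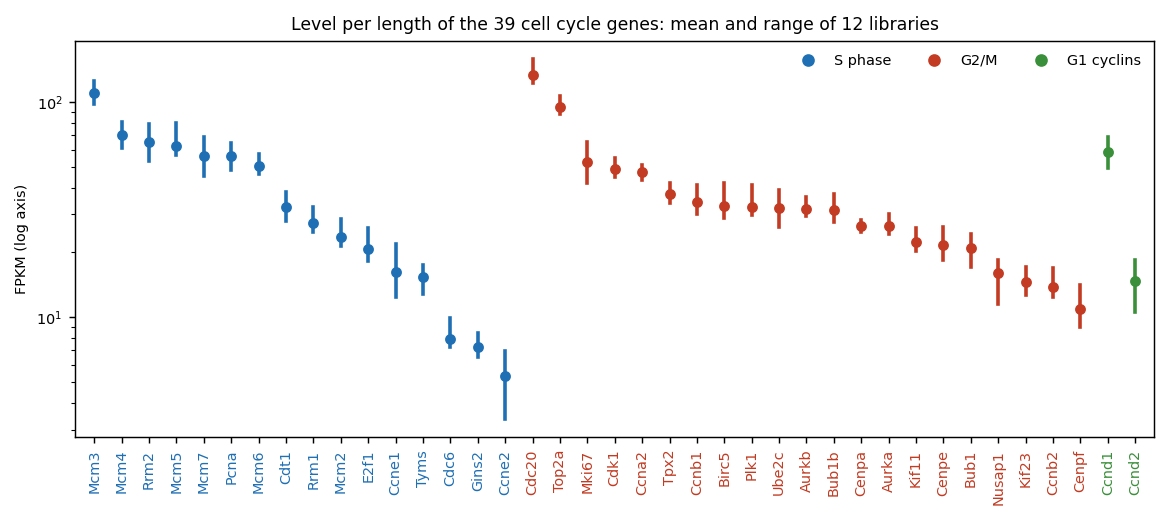
Level of each of the 39 genes in FPKM on a log axis, with points for the mean of 12 libraries and lines from the lowest to the highest library, coloured by list. Cdc20 and Mcm3 lead their lists, and Ccne2 is lowest at 5.33 FPKM.

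Levels varied little between libraries. The coefficient of variation had a median of 9.07% over the S-phase genes and 8.83% over the G2/M genes, against 10.1% over the 8922 genes averaging 10 CPM or more. The steadiest gene was Cenpa, the histone variant of the centromere, between 146.3 and 165.2 CPM. The gene with the widest range was Ccne2, between 11.75 and 24.29 CPM, and its lowest value came from library 1_120519 of N-VEGF cells without dox. Among G2/M genes Nusap1, a spindle protein, ranged most, from 46.5 to 74.83 CPM, and was lowest in that same library. Exons of Gins2, Ccnd1, Ube2c and Ccne2 overlap other genes on the opposite strand over 67.32%, 23.36%, 22.77% and 17.42% of their bases, so their values are uncertain, and whether counting used strand is not given in the sources used here. Smaller overlaps on the opposite strand were in Ccna2 (12.49%), Mcm7 (8.7%), Ccnd2 (7.86%), Plk1 (7.09%), Nusap1 (4.24%) and Cdc20 (2.84%). On the same strand Mcm7 shared 3.89% and Top2a 1.35% of bases.

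**Figure D2:**
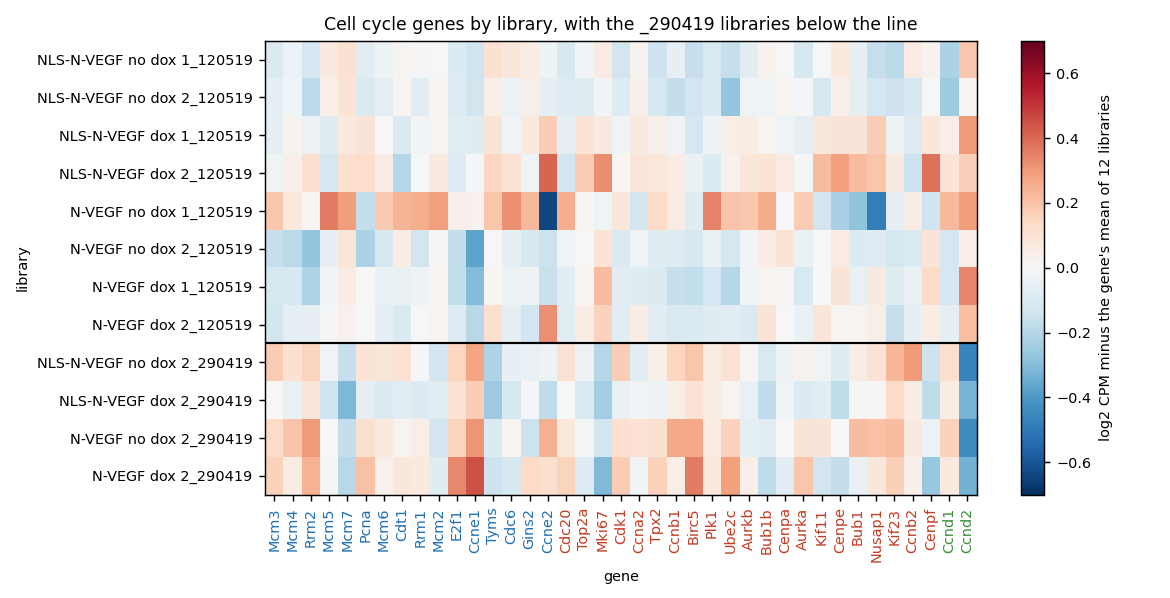
Colour gives the log2 CPM of each gene minus its mean of 12 libraries, with genes in columns and libraries in rows, the _290419 libraries below the line. Ccnd2 is low and Ccne1 is high in all 4 of these libraries, and Ccne2 and Nusap1 are lowest in library 1_120519 of N-VEGF cells without dox.

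The first question was whether dox altered these genes in NLS-N-VEGF cells. No cell cycle gene passed the test: 0 of 39 had an adjusted p below 0.05 by edgeR's quasi-likelihood test, and 0 had an unadjusted p below 0.05. Unless stated, the fits of dox and population effects held no term for the library label. DESeq2 also called 0. Over all 13608 genes tested, 0.022% were called. Pcna, the sliding clamp of DNA polymerases, measured 128, 125.7 and 144 CPM without dox, against 143.3, 146.8 and 129.1 CPM under dox. The groups overlapped. The lowest unadjusted p belonged to Cdt1, which loads the helicase and is destroyed in S phase. It measured 102.7, 102.8 and 108.9 CPM without dox, against 94.49, 88.26 and 96.5 CPM under dox. The 2 groups of Cdt1 values did not overlap, and its log2 fold change of -0.17 (SE 0.085, unadjusted p = 0.0681) did not pass the threshold. Mcm5, the next in S phase, had a log2 fold change of -0.14 (95% interval -0.36 to 0.08). Of the G2/M genes, the kinesin Kif11 and Nusap1 had the lowest unadjusted p, with log2 fold changes of 0.13 (-0.08 to 0.34) and 0.19 (-0.12 to 0.50). The 95% interval lay within 1 log2 unit of 0 for all 39 genes.

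The lists differed in the sign of their medians by small amounts. The median log2 fold change with dox was -0.006 over the S-phase genes, of which 6 of 16 were higher, and 0.060 over the G2/M genes, of which 17 of 21 were higher, beside 0 over all genes. The G2/M median changed sign between library pairs of the same label, at 0.053 and 0.194 in the _120519 pairs and -0.080 in the _290419 pair. In that pair 3 of 21 G2/M genes and 2 of 16 S-phase genes were higher with dox. In a fit of the _120519 libraries alone the G2/M median was 0.118, with 19 of 21 higher. That fit called 0 of 39 genes, beside 0.814% of all genes, and 8 of the 39, 6 of them of G2/M, were below an unadjusted p of 0.05. Of all 13387 genes in that fit 1522 were. Across the 39 genes the effect had a Spearman correlation of -0.58 with the GC content of the transcript, and -0.22 across 12053 genes. For dox in N-VEGF cells these values were -0.53 and -0.25. Between populations they were -0.58 and -0.26 with dox, and -0.49 and -0.29 without. For the difference of the dox effects they were -0.05 and 0.02. The points of a comparison share the same libraries, and the part of GC content in the effects was not tested.

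In N-VEGF cells dox likewise moved no cell cycle gene past the threshold. The test called 0 of 39, with 0 below an unadjusted p of 0.05, against 0.0367% of all genes. Mki67, the marker of proliferating cells, measured 513, 558.9 and 478.7 CPM without dox, against 607.5, 585.8 and 422.9 CPM under dox. The values with dox spanned those without. Cdc6, which loads the helicase, had the lowest unadjusted p (0.125) of the S-phase genes, with 51.66, 39.74 and 42.02 CPM without dox, against 40.43, 39.6 and 38.24 CPM under dox. Its highest value came from the library that stood apart. The mitotic kinase Plk1 measured 90.37, 68.7 and 73.78 CPM without dox, against 65.3, 66.88 and 74.73 CPM under dox, a log2 fold change of -0.17 (95% interval -0.40 to 0.06). Cdt1 and Ccnb1, the cyclin partner of Cdk1, had log2 fold changes of -0.13 (-0.31 to 0.06) and -0.16 (-0.40 to 0.08). The widest interval of the 39 was that of Ccnd2, from -0.41 to 0.62. That fit held no label term, so the interval also holds the spread between suffixes. Ccnd2 measured 166.9, 140.8 and 100.4 CPM without dox, against 172.6, 157.5 and 108.1 CPM under dox. In NLS-N-VEGF cells it measured 155, 138.2 and 98.88 CPM, against 167.2, 152.8 and 108.6 CPM. It was higher under dox in each pair of libraries of the same label.

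The median over the S-phase genes was -0.064, with 4 of 16 higher, and over the G2/M genes -0.030, with 6 of 21 higher. The S-phase median was -0.248 in the pair that holds library 1_120519, and 0.061 and 0.004 in the other pairs. That library had the highest mean S-phase level of the 12, at 6.99 on the log2(CPM + 1) scale against 6.76 in the other _120519 library of its group.

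**Figure D3:**
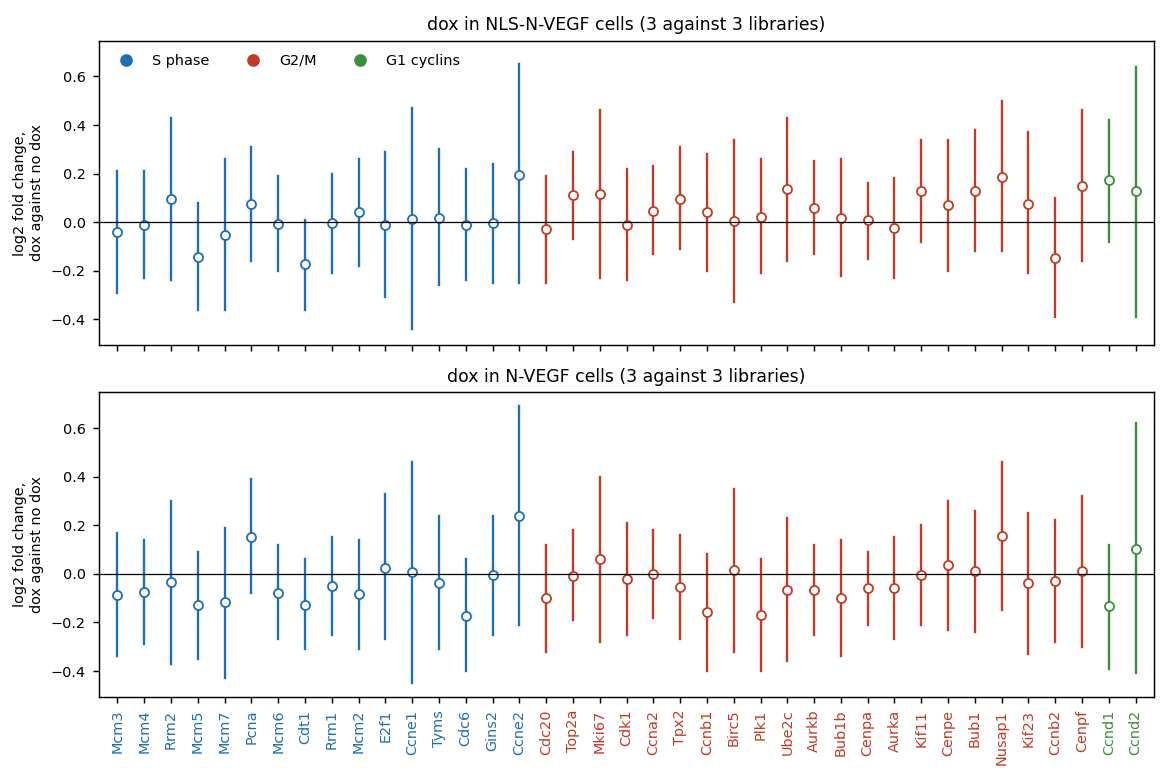
Log2 fold change of each gene, dox against no dox, with its 95% interval, in NLS-N-VEGF cells (top) and N-VEGF cells (bottom), 3 against 3 libraries. Open points did not pass the test, and every point in both panels is open.

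The direct test of the difference between the dox effects of the 2 populations called 0 of 39 genes, and 0 were below an unadjusted p of 0.05, beside 0% of all genes. The largest difference was in Ccnd1, the D-type cyclin that drives Cdk4 and Cdk6. It measured 236.1, 231.6 and 299.1 CPM without dox, against 284.8, 294.3 and 285.1 CPM under dox in NLS-N-VEGF cells. In N-VEGF cells it measured 322.1, 253.7 and 308.3 CPM without dox, against 254.2, 263.3 and 288.8 CPM under dox. The difference of the log2 fold changes was 0.31 (95% interval -0.05 to 0.66, unadjusted p = 0.0868). For Ccnb1 it was 0.20 (-0.14 to 0.54), for Plk1 0.19 (-0.14 to 0.52) and for Cdc6 0.16 (-0.16 to 0.49). The median difference, NLS-N-VEGF minus N-VEGF, was 0.115 over the G2/M genes, of which 19 of 21 were above 0, and 0.046 over the S-phase genes, of which 11 of 16 were above 0, beside 0.005 over all genes. By library label the G2/M median was 0.130, 0.182 and 0.017, and the S-phase median was 0.246, -0.007 and -0.113.

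The 2 populations were also compared at the same dox state. With dox, 0 of 39 genes were called and 0 were below an unadjusted p of 0.05, beside 0% of all genes. The log2 fold changes, NLS-N-VEGF against N-VEGF, ran from -0.10 (Cdt1) to 0.14 (Bub1, a kinase of the spindle checkpoint). Without dox, 0 of 39 were called and 0 were below an unadjusted p of 0.05, again beside 0% of all genes, and values ran from -0.21 (Ccnd1) to 0.09 (Ccne2). The group means of the S-phase genes lay between 6.86 and 6.90 and those of the G2/M genes between 7.08 and 7.14 on the log2(CPM + 1) scale. With the library label as a block, the 5 comparisons in the order given still called 0 of 39 genes each, beside 0.125%, 0.11%, 0%, 0.0147% and 0% of all genes. In that block fit 1, 0, 1, 0 and 1 of the 39 were below an unadjusted p of 0.05. Of all 13608 genes 989, 735, 464, 621 and 499 were. The cell cycle gene below 0.05 was of the S-phase list for dox in NLS-N-VEGF cells. It was a G1 cyclin for the difference of the dox effects and for the populations without dox. With the _120519 libraries alone the 5 comparisons also called 0 of 39 each, beside 0.814%, 0.12%, 0.0299%, 0.0822% and 0.0373% of all genes.

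Other genes of the cycle were called in none of these comparisons over all 12 libraries either: 0 of 32 other replication genes, 0 of 41 other mitotic genes, 0 of the 28 tested of 32 regulators and 0 of 6 genes linked to arrest. In the fit without a block, 2 of the other cycle genes, the arrest genes Btg1 and Gas2, were below an unadjusted p of 0.05. Both were for dox in N-VEGF cells. With the library label as a block none was called. For dox in NLS-N-VEGF cells that fit put 3 arrest genes, 3 regulators and 1 other mitotic gene below 0.05 unadjusted. For dox in N-VEGF cells it put 4 arrest genes and 2 regulators there, and for the difference 2 arrest genes. Between populations it put 1 arrest gene there with dox. Without dox it put 3 other replication, 3 other mitotic, 1 regulator and 2 arrest genes there. With the _120519 libraries alone 2 of 6 arrest genes were called in NLS-N-VEGF cells, both lower under dox, beside 0.814% of all genes: Gas1 with a log2 fold change of -0.79 (adjusted p = 0.00198 by edgeR) and Btg2 with -0.86 (adjusted p = 0.00367). Btg2 was also called for the difference of the dox effects in that fit, at -1.13 (adjusted p = 0.0451). In the _290419 pair of NLS-N-VEGF cells Gas1 measured 219 CPM without and 207.9 CPM with dox, and Btg2 11.28 and 10.01 CPM. In N-VEGF cells Gas1 measured 449, 405.1 and 208.2 CPM without dox, against 314.2, 308.8 and 143.2 CPM under dox. Btg2 there measured 16.09, 15.77 and 9.442 CPM, against 18.93, 19.8 and 7.835 CPM. Over all 12 libraries 5 of 6 arrest genes were lower under dox in each population. Cdkn1a, the p21 inhibitor of cyclin-dependent kinases, had a log2 fold change with dox of 0.29 (95% interval -0.22 to 0.79) in NLS-N-VEGF cells and 0.12 (-0.38 to 0.62) in N-VEGF cells. Foxm1 and Mybl2, activators of mitotic genes, had values of 0.03 and 0.04 in NLS-N-VEGF cells and -0.08 and -0.02 in N-VEGF cells.

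The libraries of the 2 suffixes differed far more than the groups did. With group as a term, 17 of 39 cell cycle genes (43.6%) differed between the 4 libraries of suffix _290419 and the 8 of suffix _120519, close to the 45.6% of all genes that did. Of the 39, 10 were higher and 7 lower in _290419, against 22.2% and 23.5% of all genes. The S-phase list held 4 higher and 3 lower genes and the G2/M list 6 higher and 3 lower, so genes of the same wave moved in both directions. With DESeq2 15 were called, 7 higher and 8 lower, beside 5709 of 31229 genes. With no filter 6 were higher and 8 lower, beside 6405 of 31229 genes. Both of these fits also held genes of low count that the filter drops. An offset for exon length and GC content gave 6 higher and 6 lower, beside 6588 of 13608 genes. Without library 2_290419 of NLS-N-VEGF cells without dox 11 were called, 5 higher and 6 lower, beside 5296 of 13893 genes. Without library 1_120519 of N-VEGF cells without dox, which stood apart, 23 were called, 15 higher and 8 lower, beside 7200 of 13947 genes. The medians were 0.039 over S phase and 0.084 over G2/M, beside 0.005 over all genes. Each group gave 1 library to _290419, and what the suffix marks cannot be told apart from any other property those libraries share.

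Ccne1, the partner of Cdk2 at the entry to S phase, rose most. It measured 51.76, 48.07, 52.8 and 58.19 CPM in the _290419 libraries, and from 33.09 to 43.55 CPM with a median of 38.87 in the others. The 2 sets did not overlap, and the log2 fold change was 0.45 (SE 0.076, adjusted p = 0.000186 by edgeR). E2f1, the transcription factor that turns on S-phase genes, measured 72.25, 69.92, 72.39 and 82.3 CPM against 57.74 to 66.99 (median 61.09), a log2 fold change of 0.28 (adjusted p = 0.00096). Rrm2, a subunit of ribonucleotide reductase, rose by 0.29 and Mcm3 by 0.18 on the log2 scale, with overlapping sets.

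Other S-phase genes were lower. Mcm7 lay between 199.4 and 221.5 CPM in the _290419 libraries and between 252.6 and 303.9 CPM in the others, a log2 fold change of -0.31 (adjusted p = 0.000196). It was lower in each of the 4 groups, by -0.23 to -0.40. Tyms, which makes thymidylate, had a log2 fold change of -0.27 and Mcm2 of -0.16, and neither overlapped between the sets. Of the helicase subunits, Mcm7 kept its call in all alternatives run. Mcm3 lost its call with DESeq2, with no filter and in 8 of 12 fits with a library left out, and Mcm2 in 2 of these 12. Mcm4, Mcm5 and Mcm6 had values of 0.11, -0.07 and 0.03 that did not pass the test. Pcna had 0.14 (adjusted p = 0.0872) and Ccne2 0.05 (adjusted p = 0.783).

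Among the G2/M genes, Birc5 (survivin, of the chromosomal passenger complex) measured 126.8, 118.9, 133.7 and 142.5 CPM in the _290419 libraries and 98.55 to 107.6 CPM (median 102.4) in the others. The sets did not overlap, and the log2 fold change was 0.35 (SE 0.053, adjusted p = 7.12e-05). Kif23, a kinesin of the midbody, rose by 0.28, also without overlap. Ube2c, the ubiquitin-conjugating enzyme of the anaphase-promoting complex, rose by 0.21, Ccnb1 by 0.19, Ccnb2 by 0.17 and Cdk1 by 0.16 on the log2 scale, all with overlapping sets. Ccnb2 lost its call in 11, Cdk1 in 8, Ube2c in 6 and Ccnb1 in 2 of the 12 fits with a library left out. Ccnb2 and Cdk1 also lost it with DESeq2, these and Ccnb1 with no filter, and Ccnb2 with RLE scaling. Mki67 went the other way, with 456.1, 441.8, 478.7 and 422.9 CPM against 513 to 656.7 (median 552.5) and a log2 fold change of -0.33 (adjusted p = 0.001). Cenpf and Bub1b had log2 fold changes of -0.24 and -0.20, and Cenpf lost its call in 2 of the 12 fits with a library left out. Top2a, the topoisomerase that untangles chromosomes, had -0.09 (adjusted p = 0.186).

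Of the G1 cyclins, Ccnd2 showed the largest difference of the 39. It measured 98.88, 108.6, 100.4 and 108.1 CPM in the _290419 libraries and 138.2 to 172.6 CPM in the others. The log2 fold change was -0.59 (SE 0.060, adjusted p = 1.77e-06), and it lay between -0.55 and -0.61 in each group. Ccnd1 had 0.15 (adjusted p = 0.0804). In all, the 4 libraries lay wholly above or wholly below the 8 for 10 of 39 genes (25.6%), beside 28% of all genes.

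**Figure D4:**
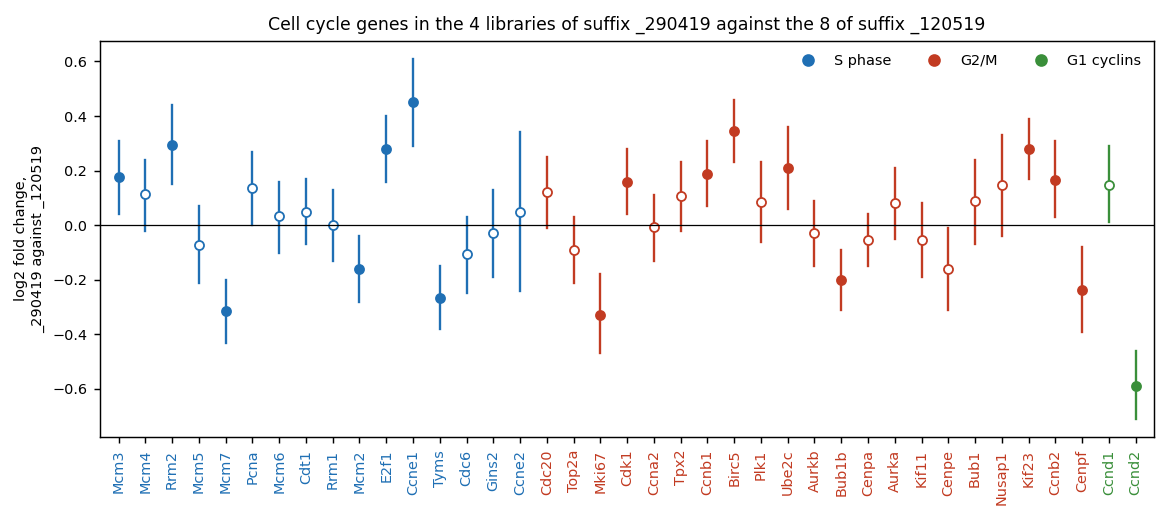
Log2 fold change of each gene, 4 libraries of suffix _290419 against 8 of suffix _120519, with its 95% interval. Filled points passed the test (17 of 39), and both lists hold filled points above and below 0.

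The difference between suffixes went with exon length. Its Spearman correlation with merged exon length was -0.60 across the 39 genes, -0.80 across the S-phase genes and -0.54 across the G2/M genes, against -0.22 across 12053 genes. All these values come from the same 12 libraries. With exon length and GC content as an offset, a fit added after the data were seen, 11 of the 17 genes kept their direction and passed. Mcm2, Rrm2, Ccnb1, Cdk1 and Cenpf no longer passed, and Ccnb2 had a value of -0.007.

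**Figure D5:**
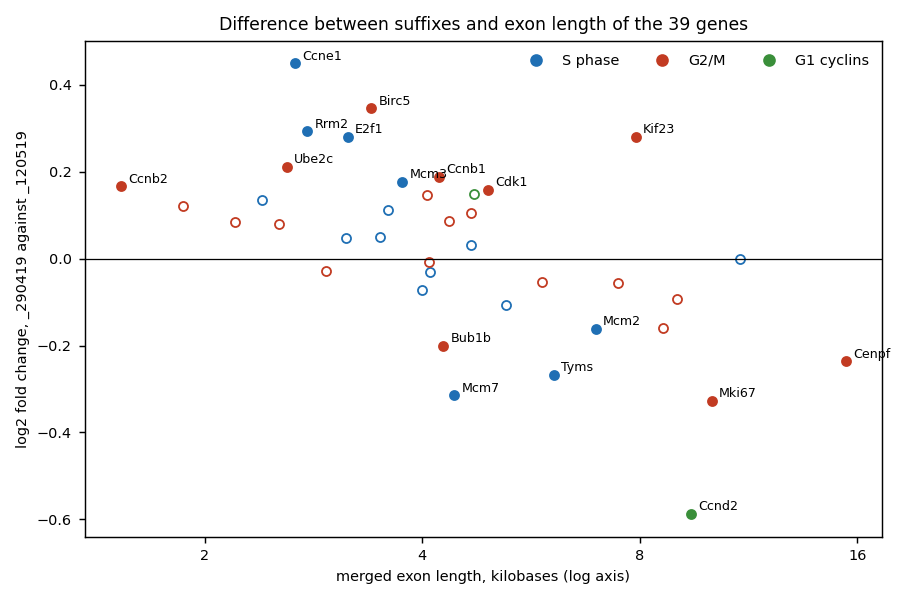
Log2 fold change between suffixes against merged exon length in kilobases on a log axis, one point for each of the 39 genes, filled where the test was passed. Ccnd2, Mki67 and Cenpf lie low at long exon lengths, and Kif23 lies high among the long genes.

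Other cycle genes were called in the same comparison, in which 22.2% of all genes were higher and 23.5% lower. Of 32 other replication genes 34.4%, of 41 other mitotic genes 46.3%, of 28 regulators 57.1% and of 6 arrest genes 83.3% were called, against 45.6% of all genes. Of 32 other replication genes 8 were higher and 3 lower, led by Prim1, a primase subunit (0.47), and of 41 other mitotic genes 16 were higher and 3 lower, led by Ckap2, a spindle protein (0.71). Foxm1 rose by 0.20 on the log2 scale. Of 28 regulators tested 6 were higher and 10 lower, with Cdkn1a at 0.54 and Cdkn1b, the p27 inhibitor, at -0.47. Of 6 genes linked to arrest 1 was higher (Gas6, 0.74) and 4 lower, among them Btg2 at -0.92 and Gas1 at -0.74. Cdk4 had a value of -0.09 (adjusted p = 0.253).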

How the data were processed

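Raw read counts per gene for 12 libraries were used as deposited. Per the methods of the study, the authors made TruSeq RNA v2 libraries, ran them as single reads and trimmed them with Trim Galore. They aligned the reads to GRCm38.p6 with TopHat2 2.1.0 and Bowtie2 2.2.6, and counted genes with HTSeq 0.6.1. Cutadapt 1.10, listed for the trimming, is not named in those methods. The strand option is not given in the sources used here. Groups came from the labels. Genes kept by filterByExpr (13608) were scaled by TMM and tested in edgeR 4.0.16 (R 4.3.3) by the quasi-likelihood F test over all 12 libraries, with Benjamini-Hochberg adjusted p below 0.05 as the call. The suffix comparison added suffix to the group term. The test was checked on simulated data with known changes. For dox these data held no difference between suffixes and had the spread of the fit with a suffix term. The check therefore does not cover the dox test at the larger spread of the fit without a block. CPM and FPKM were computed from the counts with TMM library sizes and merged exons. Alternatives were DESeq2 1.42.0, RLE scaling, no filter, at least 10 counts in every library, a replicate block, suffix as a covariate, 1 suffix only, no group term, libraries numbered 2 only, each library left out, and an added offset for exon length and GC content. Libraries of the same label deviated together (mean correlation 0.57 over 18 pairs, lowest 0.37). The labels carry both a number and a suffix. The biological coefficient of variation was 15.5% with no block, 7.93% with a suffix term and 7.86% with the label as a block. Pairs of libraries were formed by label, and a pairing by number within _120519 is not shown by these values.

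The members and lists were chosen with earlier results of these data known. Named throughout were Pcna, Mcm2, Ccne1, Ccne2, E2f1, Mki67, Top2a, Ccnb1, Cdk1, Ccnd1 and Ccnd2. To these were added, per comparison, the 6 called genes of each list with the largest change or, with none called, the 2 of lowest unadjusted p; the genes of widest and narrowest range; and, of other lists, Cdkn1a, Cdkn1b, Foxm1, Mybl2, Cdk4 and up to 4 called genes. Kif23, Bub1, Mcm3 to Mcm6 and Bub1b are named beyond or within this rule to complete a family or a count of calls.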

Additional observations from a re-analysis of the deposited data

How the results depend on the processing

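No cell cycle gene was called in the dox or population comparisons under any alternative run. With libraries of suffix _120519 only, some of the 39 were below an unadjusted p of 0.05, against 0 in each comparison as reported. In the order of the report they numbered 8, 5, 5, 0 and 4. Of all 13387 genes in that fit, 1522, 1449, 879, 912 and 1454 were below it. That fit also called 2 arrest genes, Gas1 and Btg2, for dox in NLS-N-VEGF cells. Over all genes, calls for dox in NLS-N-VEGF cells numbered 3 with edgeR, 9 with DESeq2, 53 with no filter, 17 with the replicate block, 15 with suffix as a covariate and 109 with libraries of suffix _120519 only. For dox in N-VEGF cells they numbered 5 with edgeR, 36 with no filter, 15 with the block, 13 with the covariate and 16 with _120519 only. The paired fit, with the replicate block, changed no call of a cell cycle gene. It put 1, 0, 1, 0 and 1 of the 39 below an unadjusted p of 0.05 by edgeR. Between suffixes the number of cell cycle genes called was 17 as reported, and between 12 and 20 under the other alternatives. With each library left out it was between 11 and 23, lowest without library 2_290419 of NLS-N-VEGF cells without dox. Over all genes, 6588 of 13608 were called in the fit with 12 and 5731 of 13808 in the fit with 20. In the fits with 11 and 23 they numbered 5296 of 13893 and 7200 of 13947. In the fit without the block the dox intervals had a median half-width of 0.24 log2 units, and the biological coefficient of variation fell from 15.5% to 7.86% with the block. Signs changed only in log2 fold changes that did not pass the test as reported, except for Ccnb2 between suffixes. The cause was not tested. With libraries of suffix _120519 only the sign changed of E2f1 (0.002) and Cdk1 (0.092) for dox in NLS-N-VEGF cells, of Ccne1 (-0.101), E2f1 (-0.084) and Top2a (0.015) for dox in N-VEGF cells, of Pcna (0.007) and E2f1 (0.086) for the difference of the dox effects, of Pcna (0.11), E2f1 (0.046) and Cdk1 (0.065) between populations with dox, of Ccne1 (0.015) between populations without dox. With no filter the sign changed of E2f1 (0.003) and Cdk1 (0.001) for dox in NLS-N-VEGF cells, of Ccne1 (-0.004) for dox in N-VEGF cells, of Mcm6 (-0.001) between suffixes. With the offset for exon length and GC content the sign changed of E2f1 (0.01) for dox in NLS-N-VEGF cells, of Ccne2 (-0.067) and Mki67 (-0.016) between populations with dox, of Pcna (-0.019), Ccne1 (0.004) and Ccne2 (-0.043) between populations without dox, of Pcna (-0.047), Ccne2 (-0.19), Ccnb2 (-0.007) and Bub1 (-0.049) between suffixes. With DESeq2 the sign changed of Ccne1 (-0.007) for dox in N-VEGF cells. With the replicate block the sign changed of Ccne1 (-0.004) for dox in N-VEGF cells, of Ccne1 (0.006) between populations without dox. With RLE scaling the sign changed of Ccne1 (-0.001) for dox in N-VEGF cells. With suffix as a covariate the sign changed of Ccne1 (-0.006) for dox in N-VEGF cells, of Ccne1 (0.004) between populations without dox. With a minimum of 10 counts in every library the sign changed of Ccne1 (0.002) between populations without dox, of Ccna2 (0.012) between suffixes. With libraries numbered 2 only the sign changed of Gins2 (0.033) and Ccne2 (-0.102) between suffixes. The left-out fits of dox and population effects held no label term. Leaving out a library made the share of _290419 libraries unequal between groups, so their ranges also hold the difference between suffixes. Ccnd2 was higher under dox in every pair of the same label in both populations, yet its dox ranges crossed 0. With each library left out, further values crossed 0. For dox in NLS-N-VEGF cells these values ran, by gene: Mcm2 from -0.013 to 0.08, Ccne1 from -0.063 to 0.157, E2f1 from -0.075 to 0.068, Mki67 from -0.033 to 0.25, Ccnb1 from -0.029 to 0.127, Cdk1 from -0.069 to 0.081, Ccnd2 from -0.045 to 0.292. For dox in N-VEGF cells these values ran, by gene: Mcm2 from -0.191 to 0.042, Ccne1 from -0.262 to 0.155, E2f1 from -0.148 to 0.121, Mki67 from -0.037 to 0.206, Top2a from -0.039 to 0.032, Cdk1 from -0.111 to 0.02, Ccnd2 from -0.095 to 0.277. For the difference of the dox effects these values ran, by gene: Mcm2 from -0.002 to 0.227, Ccne1 from -0.144 to 0.277, Ccne2 from -0.267 to 0.155, E2f1 from -0.131 to 0.138, Mki67 from -0.09 to 0.191, Cdk1 from -0.046 to 0.116, Ccnd2 from -0.149 to 0.218. Between populations with dox these values ran, by gene: Pcna from -0.049 to 0.057, Mcm2 from -0.015 to 0.058, Ccne1 from -0.131 to 0.274, Ccne2 from -0.09 to 0.188, E2f1 from -0.157 to 0.112, Mki67 from -0.123 to 0.159, Cdk1 from -0.078 to 0.053, Ccnd2 from -0.208 to 0.132. Between populations without dox these values ran, by gene: Pcna from -0.004 to 0.158, Mcm2 from -0.206 to 0.02, Ccne1 from -0.162 to 0.156, Ccne2 from -0.109 to 0.315, E2f1 from -0.113 to 0.036, Mki67 from -0.096 to 0.034, Cdk1 from -0.148 to 0.011, Ccnd2 from -0.248 to 0.117. Between suffixes these values ran, by gene: Mcm6 from -0.014 to 0.083, Gins2 from -0.12 to 0.026, Ccne2 from -0.156 to 0.217, Ccna2 from -0.076 to 0.022, Bub1 from -0.029 to 0.163, Aurkb from -0.076 to 0.009.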
